A study of Mus musculus with 283 samples.

Results

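T11-UV mouse mammary tumours at 3 days of checkpoint therapy are described here: 7 of the 283 samples of the series, 3 from treated mice and 4 from untreated mice. They were chosen from the sample labels alone, by the model T11-UV, the time 3 day and the therapy Pd1.CTLA4 or no. T11 is a transplantable mouse mammary tumour line that the labels class as resistant, and T11-UV, known as its derivative after ultraviolet exposure, is classed as sensitive. T11-Apobec, a second derivative, is also classed as sensitive. Tumours were grown orthotopically in syngeneic hosts, which accept the graft with an intact immune system, and mice entered an arm at a tumour diameter of 5 mm. Treated mice received anti-CTLA4 (125 ug) and anti-PD1 (10 mg/kg) by bi-weekly intraperitoneal injection in 100 ul, and the therapy of the other mice is labelled no, with no mention of a control antibody. The label for the untreated tumours also gives 3 day, while the header of the deposited table calls them pretreatment tumours, so they may have been taken at another time after enrolment. How many injections preceded day 3, the age of the mice and whether the line is a single clone were not given in the sources used here. Each library comes from a mouse number of its own. Treated tumours are numbered 1 to 3 and untreated tumours 1 to 4 below, and these numbers only name them.

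PD1 and CTLA4 are receptors that restrain T cells, and antibodies against them release that restraint. Activated T cells and natural killer cells then secrete interferon gamma, which acts through its receptor on tumour, stromal and myeloid cells. Its targets include the transcription factor IRF1, the feedback inhibitor SOCS1, guanylate-binding proteins, chemokines, and the machinery that cuts peptides and loads them on MHC class I and class II molecules. In mammary tumours this programme is commonly read as a sign of an active immune response, and matrix genes as a sign of the stroma and of mesenchymal tumour cells.

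Whole-tumour RNA was measured, so fewer cells of a type and less RNA per cell cannot be told apart. Values are upper-quartile-scaled gene signals, given as log2(signal + 1) unless stated, where a difference of 1 is a doubling. Differences are treated minus untreated tumours from a limma fit to 192 samples in 47 groups, and a gene was called at a Benjamini-Hochberg adjusted p under 0.05 over 20848 genes. Depth, worked out from the spacing of low values, was 22680000, 47600000 and 38140000 reads in treated tumours 1, 2 and 3, against 36720000 to 63980000 in the untreated ones. All 7 libraries share 1 flow cell, but the treated ones were on lane 4 and the untreated ones on lane 7, so lane and therapy cannot be told apart. To tell T11 origin from KPB25L, an unrelated tumour of the series, 50 transcripts that mark each in untreated tumours were used. They were not chosen to tell T11-UV from T11 or T11-Apobec, so that identity was not checked. Mean T11 marker levels were 7.94 to 9.14 in the treated T11-UV tumours and 9.06 to 9.20 in the untreated ones, against 1.78 to 2.65 in KPB25L. The KPB25L markers averaged 1.75 to 2.11 in treated and 1.18 to 1.49 in untreated T11-UV tumours, against 10.15 to 10.68 in KPB25L.

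The 3 treated tumours were not alike, and treated tumours 1 and 3 stood apart in measures that concern the RNA or the library. Across genes, the SD of the difference between libraries was 1.14 to 1.74 for the 3 pairs of treated tumours and 0.621 to 0.858 for the 6 pairs of untreated tumours. In treated tumours 1 and 3, levels rose with the GC share of the transcript by 0.55 and 0.29 for every 10 percentage points. The slope was -0.14 in treated tumour 2 and -0.18 to -0.11 in the untreated tumours. Ranked from the highest, those slopes stood at places 5, 141 and 14 of 192 samples for treated tumours 1, 2 and 3. Short transcripts were also higher in treated tumours 1 and 3. The shortest 10% of protein-coding genes had median differences of 0.63, -0.19 and 0.89 from the untreated mean in treated tumours 1, 2 and 3, and the longest 10% had -0.59, 0.35 and -0.72. Untreated tumours had -0.22 to 0.23 in the shortest and -0.29 to 0.18 in the longest. Untreated tumour 2, with 0.23 and -0.29, leaned the same way as treated tumours 1 and 3. Of 1687 processed pseudogenes, 638, 94 and 408 were at 0 in treated tumours 1, 2 and 3, against 84 to 154 in the untreated tumours. The 50 most abundant genes took 20.5, 12.8 and 18.5% of the signal, against 14.2 to 15.3%. By most of these measures treated tumour 2 lay close to the untreated tumours, and treated tumours 1 and 3 did not. Treated tumour 2 was outside the untreated range for the longest genes and for the share of the 50 most abundant genes. The part of these measures in the differences below was not tested beyond the corrected values given beside them.

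**Figure D1:**
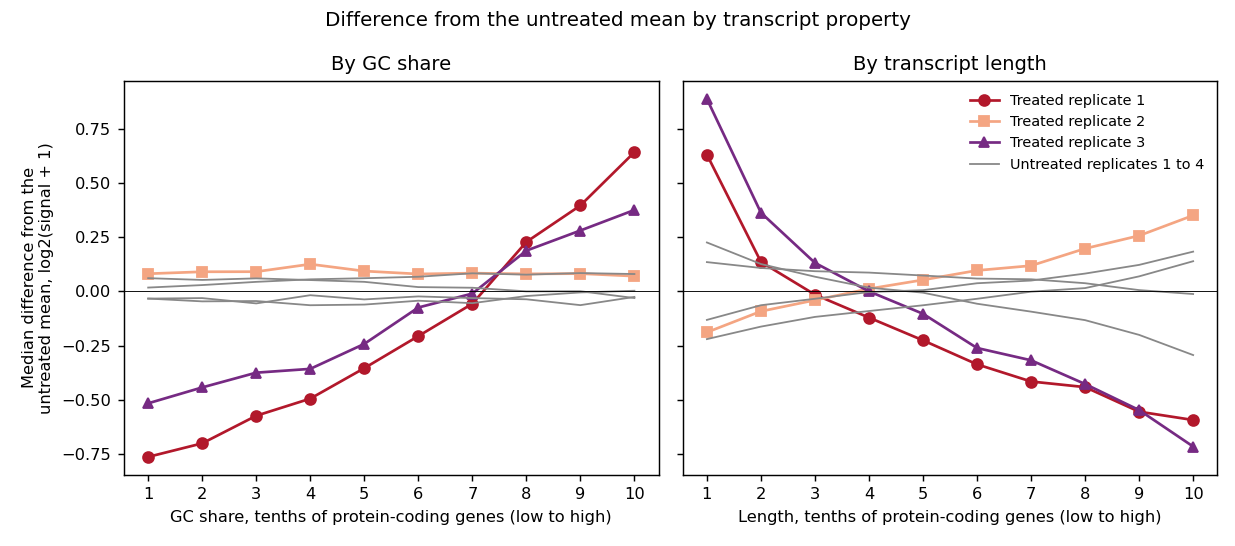
Median difference of each library from the mean of the 4 untreated libraries, log2(signal + 1), over protein-coding genes in 10 equal bins of GC share (left) and of transcript length (right), low to high. Treated tumours 1 and 3 run from -0.76 and -0.52 in the lowest GC bin to 0.64 and 0.37 in the highest, while treated tumour 2 (0.08 and 0.07) and the untreated libraries (grey lines) are nearly flat by GC share.

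Treated and untreated T11-UV tumours differed in 2937 genes, 14.1% of those tested, of which 1386 (6.65%) were higher and 1551 (7.44%) lower in treated tumours, and 1644 differed more than 2-fold. Over all genes the median difference was -0.09. Single tumours gave very different counts. Treated tumour 1 differed from the 4 untreated tumours in 6288 genes (30.2%), 2558 higher (12.3%) and 3730 lower (17.9%), and treated tumour 3 in 2454 genes (11.8%), 1129 higher (5.42%) and 1325 lower (6.36%). Treated tumour 2 differed in 0 genes by limma, with 213 genes at an unadjusted p under 0.05. These counts take a lone tumour to vary like the other groups and describe that tumour, not the therapy. Of the 1386 genes called higher, 1385 lay above all untreated tumours in treated tumour 1, 1372 in treated tumour 3 and 383 (27.6%) in treated tumour 2. Of the 1551 called lower, 1550, 1540 and 300 (19.3%) lay below them in treated tumours 1, 3 and 2. The number of calls rests on which library enters. It was 1 without treated tumour 1, 513 without treated tumour 3 and 7377 without treated tumour 2, and it was 1472, 2834, 1429 and 1864 without untreated tumours 1, 2, 3 and 4. With the spread taken from the 7 libraries alone it was 0, with 2701 genes at an unadjusted p under 0.05. A correction for GC share and length within each library left 2235 calls among 20520 genes (10.9%), 951 higher (4.63%) and 1284 lower (6.26%). With libraries scaled by their medians, 1870 genes were higher and 1228 lower, and the median of all genes was 0.06.

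In 1188 genes (5.7%) all 3 treated tumours lay above all 4 untreated ones, and in 759 genes (3.64%) below them, 1947 genes (9.34%) in all. For a single gene, an exact permutation test over the 35 ways to split 3 from 4 tumours, made two-sided by doubling the smaller tail, cannot give a p below 0.0571. Of 79 named genes, 20 reached that smallest value. The p-values that follow therefore rest on the spread pooled over the groups of the fit.

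The interferon gamma programme was higher in treated tumours 1 and 3. Of 22 tested members, 4 rose (Irf1, Socs1, Batf2 and Gbp4) and 0 fell, where 6.65% of all genes were called higher. The median difference was 1.56, beside -0.09 over all genes. Medians in treated tumours 1, 2 and 3 were 1.92, 0.27 and 2.60. All 22 members were positive in treated tumour 3, 21 in treated tumour 1 and 18 in treated tumour 2. The list mean was 12.21, 10.45 and 12.88 in treated tumours 1, 2 and 3, against 9.73 to 10.55 in the untreated tumours, so that treated tumour 2 lay inside the untreated range. After the correction for GC share and length, the median was 1.83 and 6 members rose. With treated tumour 2 left out, 10 members rose. With treated tumour 1 left out 0 did, and with treated tumour 3 left out 1 did. Higher calls over all genes moved as well, from 1386 to 2944 without treated tumour 2. They were 0 without treated tumour 1 and 259 without treated tumour 3. The 0 without treated tumour 1 therefore holds for every list.

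Irf1 (chr11:53770014-53778374 in GRCm38), the transcription factor that carries much of the interferon gamma response, stood at 15.67, 12.97 and 15.30 in treated tumours 1, 2 and 3, against 12.48, 12.95, 12.80 and 12.51 in untreated tumours. Treated tumours 1 and 3 were far above every untreated tumour, and treated tumour 2, at 12.97, was next to the highest of them, at 12.95. The difference was 1.96 ± 0.43 (SE), adjusted p = 0.00258, and 1.86 after the GC and length correction (adjusted p = 0.0051). Socs1 (chr16:10782240-10785536), which blocks signalling from the interferon receptor, stood at 13.31, 9.61 and 13.24 in treated tumours 1, 2 and 3, against 9.05, 9.77, 9.41 and 8.96 in untreated tumours. Here treated tumour 2 lay within the untreated range, and the difference was 2.76 ± 0.62 (SE), adjusted p = 0.00302. Batf2, a leucine-zipper factor of interferon-stimulated macrophages, stood at 11.45, 8.02 and 11.60 in treated tumours 1, 2 and 3, against 7.77, 7.78, 7.84 and 7.24 in untreated tumours, a difference of 2.70 ± 0.73 (SE), adjusted p = 0.00924. Gbp4, a guanylate-binding protein, stood at 14.48, 11.41 and 14.95 in treated tumours 1, 2 and 3, against 11.24, 10.52, 11.53 and 10.41 in untreated tumours, with 2.69 ± 0.92 (SE), adjusted p = 0.0371. For both genes treated tumours 1 and 3 were above all untreated tumours. Treated tumour 2 was also above them for Batf2 and was inside their range for Gbp4.

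The promoters of Irf1 and Socs1 are shown because these genes had the smallest p-values of the list. In RefSeq (GRCm38.p6), each window covers 300 bases around an annotated start site. Capitals mark a GAS motif in Irf1 (TTCNNNGAA, the interferon gamma activation site) and overlapping ISRE motifs in Socs1 (TTTC, 2 bases and TTTC again, on either strand, the pattern of interferon regulatory factors).
Irf1, chr11:53769764-53770063, plus strand: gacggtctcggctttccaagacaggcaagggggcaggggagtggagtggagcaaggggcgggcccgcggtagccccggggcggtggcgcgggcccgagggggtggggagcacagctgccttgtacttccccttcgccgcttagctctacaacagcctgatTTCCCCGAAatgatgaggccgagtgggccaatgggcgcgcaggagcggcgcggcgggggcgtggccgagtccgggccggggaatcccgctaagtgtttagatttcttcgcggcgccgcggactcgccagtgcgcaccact
Socs1, chr16:10785487-10785786, minus strand: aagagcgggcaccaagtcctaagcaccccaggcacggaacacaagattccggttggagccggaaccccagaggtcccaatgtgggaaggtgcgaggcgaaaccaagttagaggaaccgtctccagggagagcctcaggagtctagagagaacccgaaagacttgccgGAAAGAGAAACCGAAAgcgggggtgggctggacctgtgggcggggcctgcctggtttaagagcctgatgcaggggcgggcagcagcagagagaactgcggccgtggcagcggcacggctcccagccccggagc
The Irf1 motif begins at base -90 from the start site, and those of Socs1 at -83 and -77. A second annotated Irf1 window held no GAS motif. Of 32817 promoter windows of this length, 8.29% held a GAS and 3.43% an ISRE motif on either strand. Promoters were matched for 13 of the 22 tested members of the interferon gamma list, of which 6 held a GAS and 9 an ISRE motif. A member counted if any of its windows held the motif, whereas the shares above are of single windows. These matches are letters in a window and do not show binding.

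Other genes of the pathway had positive differences without passing the test. Ifng, the gene of interferon gamma itself and a member of the cytotoxicity list, stood at 7.82, 3.72 and 8.48 in treated tumours 1, 2 and 3, against 4.31, 3.70, 3.84 and 2.89 in untreated tumours. That was over 3 log2 units above the untreated tumours in treated tumours 1 and 3 and inside their range in treated tumour 2, with 2.98 ± 1.19 (SE), adjusted p = 0.0734. Cxcl9, a chemokine that draws T cells through CXCR3, differed by 1.63 ± 1.24 (SE), adjusted p = 0.393, and Cxcl10, which binds the same receptor, by 1.45 ± 0.87 (SE), adjusted p = 0.255. Nos2, the inducible nitric oxide synthase of activated myeloid cells and a member of the inflammatory myeloid list, stood at 11.07, 10.11 and 11.26 in treated tumours 1, 2 and 3, against 9.84, 8.48, 9.33 and 8.66 in untreated tumours, and all treated tumours exceeded the untreated ones, but with 1.74 ± 0.87 (SE), adjusted p = 0.162 it was not called.

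**Figure D2:**
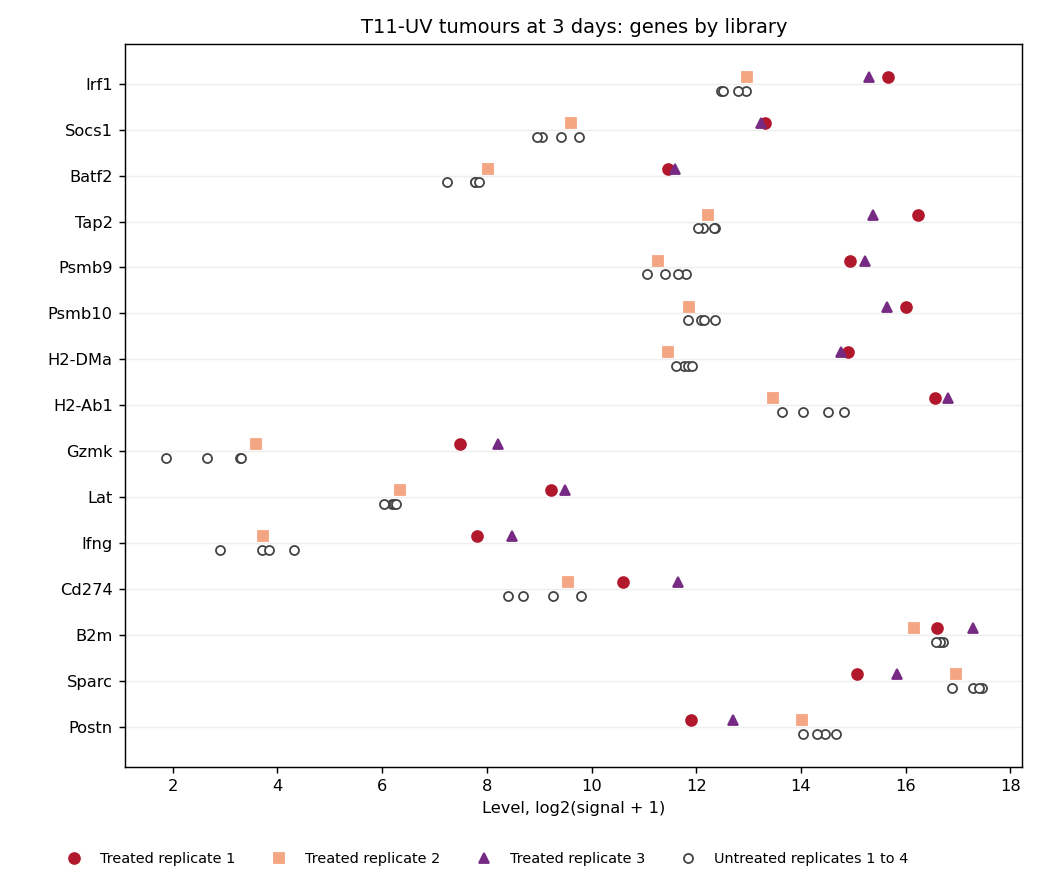
Level of 15 genes in each library, log2(signal + 1), with the 3 treated tumours as filled symbols above and the 4 untreated tumours as open circles below each line. For Irf1, Socs1, Psmb9 and Gzmk, treated tumours 1 and 3 lie well to the right of the untreated tumours and treated tumour 2 beside them (Irf1 15.67 and 15.30 against 12.97), while for Sparc and Postn they lie to the left.

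Presentation on MHC class I showed the largest share of called members. Of 16 tested genes 7 rose and 1 fell, against 6.65 and 7.44% of all genes, and the median difference was 1.06. Medians in treated tumours 1, 2 and 3 were 1.53, -0.22 and 1.80, and singly 10, 0 and 8 members were higher by the test, where 12.3, 0 and 5.42% of all genes were. After the GC and length correction the median was 0.88, and 5 members rose. With treated tumour 2 left out, 11 members rose, and with treated tumour 1 or 3 left out 0 did. Over all genes 0, 2944 and 259 were called higher without treated tumours 1, 2 and 3.

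Members that cut and transport peptides led the class I list. Psmb9 (chr17:34181987-34187764), a catalytic subunit of the immunoproteasome, stood at 14.94, 11.27 and 15.22 in treated tumours 1, 2 and 3, against 11.39, 11.80, 11.65 and 11.05 in untreated tumours, with 2.33 ± 0.69 (SE), adjusted p = 0.016. Psmb10, another of its catalytic subunits, stood at 16.01, 11.85 and 15.64 in treated tumours 1, 2 and 3, against 11.85, 12.36, 12.09 and 12.14 in untreated tumours, with 2.39 ± 0.55 (SE), adjusted p = 0.00354. Both were about 3 to 4 log2 units above the untreated tumours in treated tumours 1 and 3 and inside their range in treated tumour 2. Tap2 (chr17:34203527-34216321), a subunit of the peptide transporter of the endoplasmic reticulum, stood at 16.23, 12.23 and 15.37 in treated tumours 1, 2 and 3, against 12.13, 12.36, 12.34 and 12.02 in untreated tumours, with 2.40 ± 0.56 (SE), adjusted p = 0.00401. Its partner Tap1 stood at 13.48, 12.47 and 14.11 in treated tumours 1, 2 and 3, against 12.42, 12.19, 12.80 and 12.01 in untreated tumours and did not pass, with 1.00 ± 0.61 (SE), adjusted p = 0.262. Tapbp, which bridges the transporter and class I molecules, differed by 1.26 ± 0.32 (SE), adjusted p = 0.00707. H2-T23, a non-classical class I molecule, differed by 1.81 ± 0.48 (SE), adjusted p = 0.0084. The proteasome activators Psme1 and Psme2 also rose, by 0.92 and 1.13 (adjusted p = 0.0404 and 0.0155), and neither was called after the GC and length correction (adjusted p = 0.179 and 0.0856). The classical heavy chains H2-K1 and H2-D1 differed by 0.97 and 1.26 without passing (adjusted p = 0.171 and 0.0774). B2m, the light chain they share, stood at 16.61, 16.16 and 17.28 in treated tumours 1, 2 and 3, against 16.66, 16.71, 16.66 and 16.57 in untreated tumours, and treated tumours lay on both sides of the untreated ones. Its difference of 0.03 turned to -0.15 after the correction and was not called in either form. Pdia3, a thiol reductase of the loading complex, was the member that fell, at 13.31, 14.91 and 14.18 in treated tumours 1, 2 and 3, against 15.14, 14.99, 15.23 and 15.25 in untreated tumours, with -1.02 ± 0.27 (SE), adjusted p = 0.0078, and all treated tumours were below all untreated ones.

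Tap1 and Psmb9 lie head to head on chromosome 17, and their promoter windows share 275 bases, which is why the Tap1 window is shown. Capitals mark a CCAAT box, which 37.4% of all windows held.
Tap1, chr17:34187306-34187605, plus strand: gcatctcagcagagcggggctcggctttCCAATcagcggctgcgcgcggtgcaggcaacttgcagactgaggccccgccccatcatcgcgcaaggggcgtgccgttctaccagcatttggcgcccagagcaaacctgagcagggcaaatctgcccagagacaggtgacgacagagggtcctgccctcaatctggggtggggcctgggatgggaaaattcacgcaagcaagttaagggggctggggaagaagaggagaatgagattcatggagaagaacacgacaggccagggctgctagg
The box begins at base -222 from the start site of Tap1, and the window held neither a GAS nor an ISRE motif. Of 14 class I members with a matched promoter, 1 held a GAS, 4 an ISRE and 9 a CCAAT motif in any of their windows. The 37.4% is a share of single windows. Of the pair that faces this stretch, Psmb9 was called and Tap1 was not, and the difference between them was not tested.

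For MHC class II, which displays peptides to CD4 T cells, few members passed the test, and those that did were chains of the peptide-exchange factor. Of 11 tested members 2 rose and 0 fell, where 6.65% of all genes were called higher, with a median difference of 1.05 and medians of 1.48, -0.43 and 2.34 in treated tumours 1, 2 and 3. H2-DMa, a chain of the exchange factor, stood at 14.90, 11.46 and 14.77 in treated tumours 1, 2 and 3, against 11.76, 11.85, 11.91 and 11.61 in untreated tumours, with 1.93 ± 0.49 (SE), adjusted p = 0.0072. Its partner chain H2-DMb1 differed by 2.05 ± 0.74 (SE), adjusted p = 0.0461, and was not called after the GC and length correction (adjusted p = 0.0985). Both were above all untreated tumours in treated tumours 1 and 3, and treated tumour 2 was below all of them for H2-DMa. H2-Ab1, a display chain, stood at 16.56, 13.46 and 16.81 in treated tumours 1, 2 and 3, against 14.81, 14.04, 14.51 and 13.64 in untreated tumours, a difference of 1.36 ± 0.70 (SE), adjusted p = 0.177. Ciita, the master regulator of class II genes, differed by 0.74 (adjusted p = 0.533). After the GC and length correction the median was 0.76 and 1 member rose. With treated tumour 2 left out, 5 members rose, and with treated tumour 1 or 3 left out 0 did. Higher calls over all genes were 0, 2944 and 259 without treated tumours 1, 2 and 3. In treated tumour 2 the list mean of 9.76 lay just under the untreated range of 9.78 to 10.60, whereas treated tumours 1 and 3 had 11.71 and 12.35.

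**Figure D3:**
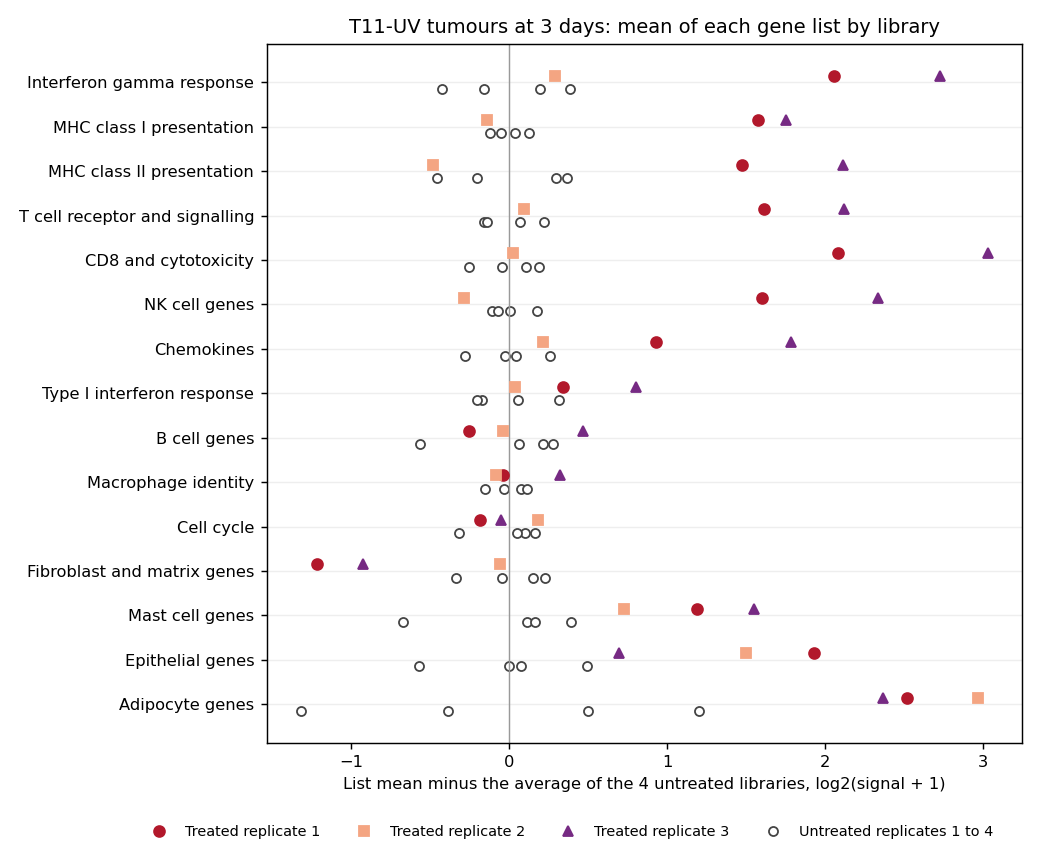
Mean of each of 15 gene lists by library, as the difference from the average of the 4 untreated libraries, log2(signal + 1), with treated tumours as filled symbols above and untreated tumours as open circles below each line. Treated tumours 1 and 3 are high for the interferon gamma, MHC and T cell lists and low for fibroblast and matrix genes, treated tumour 2 stays with the untreated tumours there, and all 3 treated tumours are high for the mast cell, epithelial and adipocyte lists.

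T cell genes were higher in treated tumours 1 and 3 as a list, while few of them passed singly. Of 20 genes of the T cell receptor and its signalling 2 rose and 0 fell, and the median difference was 1.30. Medians were 1.77, 0.08 and 2.16 in treated tumours 1, 2 and 3. The 2 called genes are not far from the 6.65% of all genes called higher. With treated tumour 2 left out, 8 members rose and 1 fell, and with treated tumour 1 or 3 left out 0 passed. Over all genes, 2944 rose and 4433 fell without treated tumour 2. Those counts were 0 and 1 without treated tumour 1, and 259 and 254 without treated tumour 3. Lat, the adaptor that relays the receptor's signal, stood at 9.22, 6.34 and 9.49 in treated tumours 1, 2 and 3, against 6.18, 6.22, 6.26 and 6.03 in untreated tumours, with 2.18 ± 0.70 (SE), adjusted p = 0.0259. Bcl11b, a T cell identity factor, differed by 1.95 ± 0.69 (SE), adjusted p = 0.0424, and was not called with a pseudocount of 10 (adjusted p = 0.0802). Cd3e, a receptor chain, stood at 7.96, 5.69 and 7.98 in treated tumours 1, 2 and 3, against 5.81, 6.41, 5.88 and 5.53 in untreated tumours, with 1.30 ± 0.92 (SE), adjusted p = 0.346. In these 3 genes treated tumours 1 and 3 were above every untreated tumour. Tcf7, a factor of naive and memory T cells, pointed the other way at -0.80 (adjusted p = 0.145).

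Cytotoxic genes had list means of 7.52, 5.47 and 8.47 in treated tumours 1, 2 and 3, against 5.19 to 5.63 in the untreated tumours. Of 16 members 2 rose and 0 fell, not far from the 6.65% of all genes called higher, with a median of 1.62 and medians of 1.99, 0.01 and 2.74 in treated tumours 1, 2 and 3. With treated tumour 2 left out, 9 members rose, and with treated tumour 1 or 3 left out 0 did. The higher calls over all genes were 0, 2944 and 259 without treated tumours 1, 2 and 3. Gzmk (chr13:113171608-113225908), a granzyme of CD8 T cells, stood at 7.49, 3.60 and 8.20 in treated tumours 1, 2 and 3, against 3.29, 1.88, 2.66 and 3.30 in untreated tumours, with 3.65 ± 0.82 (SE), adjusted p = 0.003. All treated tumours exceeded all untreated ones, treated tumour 2 by less than 1 log2 unit, and with a pseudocount of 0.1 the call was lost (adjusted p = 0.0641). Ctsw, a cathepsin of cytotoxic cells, differed by 1.73 ± 0.58 (SE), adjusted p = 0.034, and was not called after the GC and length correction (adjusted p = 0.0721). Gzmb, the main granzyme of killing, stood at 9.02, 6.98 and 10.75 in treated tumours 1, 2 and 3, against 6.57, 6.03, 7.03 and 5.80 in untreated tumours, with 2.56 ± 1.14 (SE), adjusted p = 0.113. Cd8a differed by 1.66 ± 1.06 (SE), adjusted p = 0.294, and Prf1, which makes the pore, stood at 4.11, 4.26 and 6.07 in treated tumours 1, 2 and 3, against 5.02, 4.30, 4.64 and 3.95 in untreated tumours, a difference of 0.34 ± 1.14 (SE), adjusted p = 0.889. Treated tumour 3 was above all untreated tumours in Gzmb and Prf1, whereas treated tumour 1 was above them in Gzmb and inside their range in Prf1. Among 9 natural killer genes 1 rose, where 6.65% of all genes were called higher. Klra4, a Ly49 receptor, was 2.68, 1.01 and 2.52 in treated tumours 1, 2 and 3 and listed at 0 in all 4 untreated tumours. Its levels correspond to about 2, 1 and 3 reads in treated tumours 1, 2 and 3, and with a pseudocount of 10 the difference was 0.44 and not called (adjusted p = 0.631). The other natural killer genes did not pass, and the median of the 9 was 1.19. Medians were 1.45, -0.35 and 2.39 in treated tumours 1, 2 and 3, where 9, 2 and 9 members were positive. The list mean of 4.88 in treated tumour 2 lay under the untreated range of 5.05 to 5.34, and treated tumours 1 and 3 had 6.76 and 7.50.

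Helper and costimulatory genes rose in small numbers. With treated tumour 1 or 3 left out, 0 of the helper, regulatory and lymphoid tissue genes did. Of all genes, 0 and 259 were called higher without treated tumours 1 and 3, against 1386 with every tumour in. Where 6.65% of all genes were called higher, 3 of 13 CD4 helper genes, 2 of 10 regulatory T cell genes and 2 of 11 lymphoid tissue genes were. Among helper genes, Il2, the T cell growth factor, rose by 2.29, Tnfrsf4 (OX40) by 1.502 and Il12rb1, an interleukin-12 receptor chain, by 1.36. Il2 stood at 5.43, 3.07 and 4.73 in treated tumours 1, 2 and 3, against 1.21, 2.38, 1.92 and 2.95 in untreated tumours, and all treated tumours exceeded all untreated ones (2.29 ± 0.72 (SE), adjusted p = 0.0239). With a pseudocount of 0.1 the call for Il2 was lost (adjusted p = 0.117). Tnfrsf18 (GITR), a receptor of regulatory and activated T cells, rose by 1.60 (adjusted p = 0.0221). Foxp3, the factor that defines regulatory T cells, stood at 8.75, 6.65 and 7.17 in treated tumours 1, 2 and 3, against 6.33, 6.72, 6.79 and 6.46 in untreated tumours and did not pass (0.95 ± 0.52 (SE), adjusted p = 0.208). The regulatory T cell list of 10, in which Tnfrsf18 and Tnfrsf4 rose, had a median of 0.46 and 0 calls after the GC and length correction. Among 11 genes of lymphoid tissue, Lta and Ltb, the lymphotoxins that organise it, rose by 2.77 and 2.17 (adjusted p = 0.0158 and 0.0221). Lta stood at 7.63, 4.41 and 8.05 in treated tumours 1, 2 and 3, against 4.01, 4.09, 4.09 and 3.52 in untreated tumours. After the correction Lta was called (adjusted p = 0.0387), and Ltb, Il12rb1, Tnfrsf4 and Tnfrsf18 were not (adjusted p = 0.067, 0.134, 0.165 and 0.1). Follicular helper genes had 0 calls among 10 and a median of 0.40, and Cxcr5 and Bcl6, which define that cell, differed by 1.21 and -0.27 (adjusted p = 0.376 and 0.58).

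The receptors targeted by the antibodies did not pass. Pdcd1, which encodes PD1, stood at 7.28, 5.44 and 8.03 in treated tumours 1, 2 and 3, against 5.61, 5.45, 6.04 and 5.53 in untreated tumours, with 1.26 ± 0.78 (SE), adjusted p = 0.273. Ctla4 stood at 3.86, 5.63 and 5.89 in treated tumours 1, 2 and 3, against 5.07, 5.10, 5.56 and 4.56 in untreated tumours, with 0.05 ± 0.81 (SE), adjusted p = 0.985, and treated tumour 1 was the lowest of the 7. Of the 10 inhibitory receptors tested 0 passed in limma (2 unadjusted, where 6199 of all 20848 genes were), and the median was 0.40. On the ligand side, Pdcd1lg2 (chr19:29410919-29471161), the gene of PD-L2, stood at 8.86, 4.72 and 8.93 in treated tumours 1, 2 and 3, against 4.01, 4.09, 3.55 and 3.04 in untreated tumours, with 3.83 ± 1.18 (SE), adjusted p = 0.0202. All treated tumours exceeded all untreated ones, and with a pseudocount of 0.1 the call was lost (adjusted p = 0.0546). Cd274, the gene of PD-L1 beside it on chromosome 19, stood at 10.60, 9.56 and 11.66 in treated tumours 1, 2 and 3, against 9.79, 8.68, 9.27 and 8.41 in untreated tumours, with 1.57 ± 0.72 (SE), adjusted p = 0.127. Treated tumour 2 was inside the untreated range and the other treated tumours above it. As a list, the checkpoint ligands and B7 family had 1 of 9 members higher and 0 lower, where 6.65% of all genes were called higher. The list median was 0.10, and 5 of 9 members were positive. Medians were -0.07, 0.12 and 0.41 in treated tumours 1, 2 and 3.

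Few myeloid genes passed the test. Among 14 macrophage identity genes, C1qa, a complement subunit that macrophages make, rose by 1.43, and Mertk, a receptor for dying cells, fell by 1.52 (adjusted p = 0.0296 and 0.0115). That was 1 of 14 higher and 1 of 14 lower, close to the 6.65 and 7.44% of all genes. C1qa was not called after the GC and length correction (0.73, adjusted p = 0.23). Mertk stood at 7.75, 10.18 and 8.01 in treated tumours 1, 2 and 3, against 10.29, 9.68, 10.51 and 10.18 in untreated tumours, and it was low in treated tumours 1 and 3 alone. The list median was 0.21. Of 14 inflammatory myeloid genes 1 rose and 0 fell, close to the 6.65% of all genes, with a median of 0.14. The medians were -0.45, 0.30 and 0.44 in treated tumours 1, 2 and 3, where 6, 10 and 9 members were positive. Tnf, the inflammatory cytokine and the called member, stood at 9.67, 7.52 and 9.65 in treated tumours 1, 2 and 3, against 7.07, 6.91, 7.38 and 6.90 in untreated tumours, with 1.88 ± 0.54 (SE), adjusted p = 0.0141, and all treated tumours exceeded the untreated ones. Batf3, a factor needed for cross-presenting dendritic cells, stood at 10.81, 6.13 and 10.23 in treated tumours 1, 2 and 3, against 6.53, 6.64, 6.67 and 5.98 in untreated tumours, with 2.60 ± 0.66 (SE), adjusted p = 0.00677. Xcr1 and Clec9a, markers of those cells, differed by 1.72 and 1.25 without passing (adjusted p = 0.106 and 0.13). Among 9 plasmacytoid dendritic cell genes 2 rose, where 6.65% of all genes were called higher. These were Bst2 and Ly6d, by 1.57 and 3.88 (adjusted p = 0.0318 and 0.0476), while Siglech, which defines that cell, differed by 0.06 (adjusted p = 0.98). Bst2 is also induced by interferon in many cells. Of 18 chemokines 0 passed, with a median of 0.97. Of 13 complement genes 1 rose, close to the 6.65% of all genes. It was Cfp (properdin), by 1.41 (adjusted p = 0.0298). Ly6d was not called with a pseudocount of 10 (adjusted p = 0.141). Bst2, Ly6d and Cfp were not called after the GC and length correction (adjusted p = 0.176, 0.0908 and 0.0971). Alternatively activated macrophage genes had 0 calls among 11 and a median of 1.17, and neutrophil genes had 0 among 15 and a median of 0.32. These counts of 0 are limma's, and at an unadjusted p under 0.05, which 6199 of all 20848 genes reached, there were 3 chemokines, 3 alternatively activated macrophage genes and 1 neutrophil genes.

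The type I interferon list, which has no gene in common with that of interferon gamma, had 0 calls among 22 and a median of 0.41, with 0.34, -0.01 and 0.98 in treated tumours 1, 2 and 3. Ifit2, an interferon-induced RNA-binding protein, differed by -0.77, and Zbp1, a nucleic acid sensor, by 1.38 (adjusted p = 0.41 and 0.191). B cell genes had 0 calls among 15 and a median of 0.03. Ms4a1, the gene of CD20, stood at 0.00, 2.60 and 3.39 in treated tumours 1, 2 and 3, against 0.00, 3.37, 2.66 and 3.41 in untreated tumours, and the groups overlapped. Plasma cell genes had 0 calls among 16 and a median of 0.29. At an unadjusted p under 0.05 limma gave 0 type I interferon, 0 B cell and 2 plasma cell genes, and 6199 of all 20848 genes.

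The mean level of matrix genes was lower in treated tumours 1 and 3, while few members passed the test. Of 18 fibroblast and matrix genes 2 fell and 0 rose, not far from the 7.44% of all genes called lower, with a median of -0.78 and medians of -1.10, -0.09 and -1.21 in treated tumours 1, 2 and 3. The list mean was 12.003, 13.16 and 12.30, against 12.89 to 13.45 in the untreated tumours. Sparc, a collagen-binding matrix glycoprotein, stood at 15.07, 16.97 and 15.83 in treated tumours 1, 2 and 3, against 17.28, 16.88, 17.45 and 17.40 in untreated tumours, with -1.30 ± 0.39 (SE), adjusted p = 0.017, and -1.36 after the GC and length correction (adjusted p = 0.0125). Postn, the gene of periostin, stood at 11.90, 14.02 and 12.70 in treated tumours 1, 2 and 3, against 14.66, 14.04, 14.46 and 14.31 in untreated tumours, with -1.49 ± 0.46 (SE), adjusted p = 0.0202, and was not called after the correction (-1.08, adjusted p = 0.0829). Col1a1, the main collagen chain, stood at 15.42, 16.50 and 14.89 in treated tumours 1, 2 and 3, against 16.84, 15.87, 16.94 and 16.57 in untreated tumours, with -0.95 ± 0.69 (SE), adjusted p = 0.361. In treated tumours 1 and 3 these 3 genes were below every untreated tumour, and treated tumour 2 was inside or at the edge of the untreated range. Singly, 4, 0 and 0 members were called lower in treated tumours 1, 2 and 3, where 17.9, 0 and 6.36% of all genes were. With treated tumour 2 left out, 5 members fell, and with treated tumour 1 or 3 left out 0 did. Lower calls over all genes moved as well, from 1551 to 4433 without treated tumour 2. They were 1 without treated tumour 1 and 254 without treated tumour 3, so these list counts largely follow the number of calls. The mean of the T11 line markers was lowest in a treated tumour as well (7.94), against 9.06 or more in the untreated tumours. Mesenchymal genes had 0 calls among 14 and a median of -0.22, endothelial genes 0 among 14 and -0.11, and genes of hypoxia and glycolysis 0 among 15 and -0.15.

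Few members of the cell cycle and p53 target lists passed. Wee1, a kinase of mitosis outside both lists, was called lower and is described further below. Of 22 cell cycle genes 1 rose, where 6.65% of all genes were called higher, and the median was -0.10 beside -0.09 over all genes. Mki67, which marks dividing cells, stood at 12.12, 13.42 and 12.18 in treated tumours 1, 2 and 3, against 12.85, 12.40, 13.29 and 12.90 in untreated tumours, with -0.29 ± 0.36 (SE), adjusted p = 0.637, and the difference was 0.05 after the GC and length correction. E2f1, a factor that drives entry into S phase, was the called member, by 1.15 ± 0.28 (SE), adjusted p = 0.00561. Of 14 p53 targets 1 rose, close to the 6.65% of all genes. This was Bax, which promotes cell death, by 0.99 ± 0.27 (SE), adjusted p = 0.0113. Bax was not called after the correction (0.33, adjusted p = 0.261).

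Genes of fat tissue were high in all 3 treated tumours, treated tumour 2 included. Of 12 adipocyte genes 0 passed the test in limma. An unadjusted p under 0.05 by limma was reached by 5 of them and by 6199 of all 20848 genes. The median difference was 2.29, with medians of 2.46, 3.75 and 2.19 in treated tumours 1, 2 and 3. The list mean was 8.11, 8.55 and 7.95, against 4.27, 6.79, 5.20 and 6.09 in untreated tumours 1, 2, 3 and 4. In 9 of the 12 genes all treated tumours exceeded all untreated ones, which held for 5.7% of all genes. Cfd, the gene of adipsin, stood at 11.20, 10.87 and 11.34 in treated tumours 1, 2 and 3, against 2.86, 9.62, 5.88 and 7.35 in untreated tumours, with 4.71 ± 2.30 (SE), adjusted p = 0.151. Plin1, which coats the lipid droplet, stood at 7.25, 7.94 and 5.45 in treated tumours 1, 2 and 3, against 0.00, 4.86, 1.47 and 3.18 in untreated tumours, with 4.50 ± 2.00 (SE), adjusted p = 0.112. The untreated tumours differed among themselves in Cfd by over 6 log2 units, more than the difference between the arms. Pparg, the factor that drives fat cell formation, stood at 5.55, 6.66 and 6.004 in treated tumours 1, 2 and 3, against 5.53, 6.29, 6.46 and 6.35 in untreated tumours and overlapped between arms (-0.09 ± 0.74 (SE), adjusted p = 0.964).

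**Figure D4:**
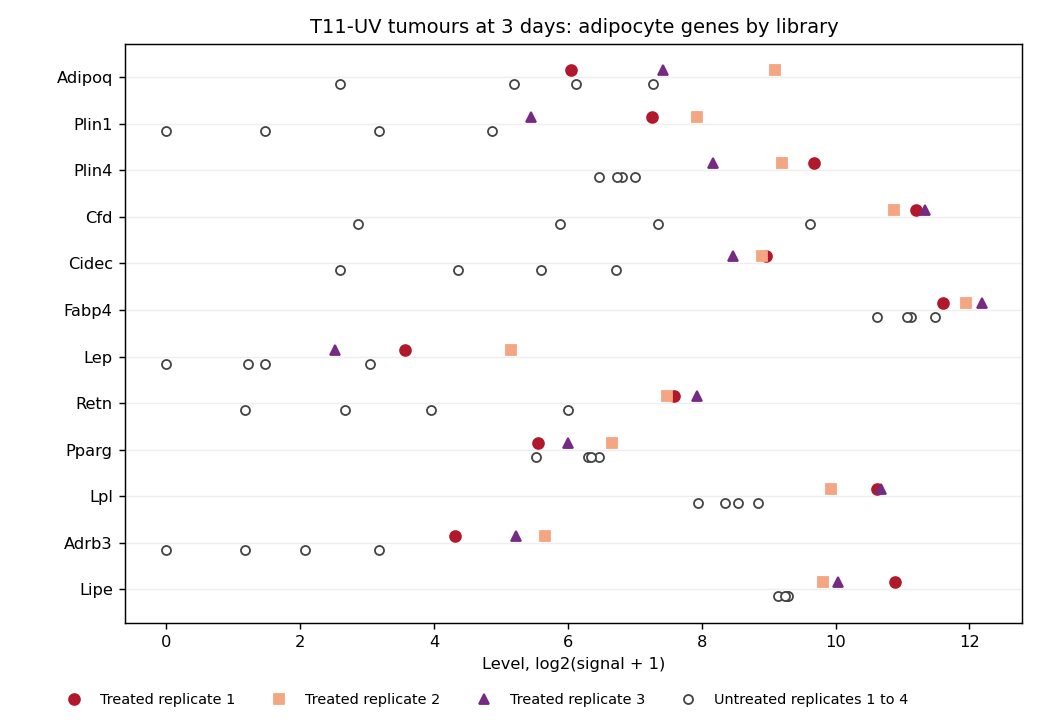
Level of the 12 adipocyte genes in each library, log2(signal + 1), with treated tumours as filled symbols above and untreated tumours as open circles below each line. All 3 treated tumours lie to the right of the 4 untreated tumours in 9 genes, and the untreated tumours spread over several log2 units in Cfd, Cidec, Plin1 and Retn.

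Epithelial and mast cell genes shared that pattern. Of 16 epithelial genes 0 passed in limma (3 unadjusted, where 6199 of all 20848 genes were), and the median was 1.77. The list mean was 5.47, 5.03 and 4.23 in treated tumours 1, 2 and 3, against 2.96 to 4.03 in the untreated ones. In 8 of the 16 all treated tumours exceeded all untreated ones, which held for 5.7% of all genes. Krt19, a luminal keratin, stood at 9.79, 8.10 and 7.33 in treated tumours 1, 2 and 3, against 6.61, 7.04, 6.67 and 4.16 in untreated tumours, with 2.29 ± 1.95 (SE), adjusted p = 0.458, and Cdh1, the gene of E-cadherin, at 7.93, 6.66 and 7.37 in treated tumours 1, 2 and 3, against 5.49, 5.80, 5.86 and 5.55 in untreated tumours, with 1.65 ± 0.74 (SE), adjusted p = 0.114. Of 10 mast cell genes 0 passed (4 unadjusted, beside the same 6199 of 20848), and the median was 1.33. The list mean was 6.45, 5.99 and 6.81, against 4.59 to 5.66. Cma1, a mast cell protease, stood at 7.59, 6.41 and 8.48 in treated tumours 1, 2 and 3, against 4.64, 5.93, 4.09 and 5.42 in untreated tumours, with 2.47 ± 1.13 (SE), adjusted p = 0.123. Among the 38 lists with tested members, the mean lay above the untreated range in 26, 15 and 28 lists in treated tumours 1, 2 and 3, and in 9 lists it did so in all 3. Those 9 were the adipocyte, epithelial, mast cell, erythroid, CD4 helper, lymphoid tissue, checkpoint ligand, inflammatory myeloid and plasmacytoid dendritic cell lists. Their margins differed widely. The lowest treated mean of the adipocyte list was 7.95, against an untreated maximum of 6.79. In the inflammatory myeloid list treated tumour 1 had 8.486 against an untreated maximum of 8.478, and its median difference was -0.45. In the plasmacytoid list treated tumour 2 had 7.177 against 7.170. The part that adjoining mammary tissue in the sample has in these values was not tested. The skeletal muscle list, another host tissue, had 0 calls among 13, a median of 0.16 and overlapping list means (5.15, 5.16 and 5.80 against 4.82 to 5.64).

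Outside the lists, the largest called differences among genes with a level above the median included nuclear and structural RNAs. Rn7s1, an RNA of the signal recognition particle, stood at 12.84, 7.03 and 11.66 in treated tumours 1, 2 and 3, against 6.45, 7.51, 7.17 and 6.21 in untreated tumours, with 3.68 ± 1.28 (SE), adjusted p = 0.0392. It has a near-identical copy, Rn7s2, so reads may have been split between them, and it was not called after the GC and length correction (adjusted p = 0.0672). Malat1, a long nuclear RNA, stood at 17.37, 13.50 and 13.81 in treated tumours 1, 2 and 3, against 12.73, 12.42, 12.57 and 12.47 in untreated tumours, with 2.35 ± 0.60 (SE), adjusted p = 0.00709, and treated tumour 1 was over 3 log2 units above the other treated tumours. Kcnq1ot1, another long nuclear RNA, differed by 2.26 ± 0.60 (SE), adjusted p = 0.00842. Ly6a, an interferon-inducible surface protein, stood at 13.42, 11.06 and 15.09 in treated tumours 1, 2 and 3, against 11.83, 10.84, 11.05 and 10.31 in untreated tumours, with 2.18 ± 0.77 (SE), adjusted p = 0.0428, and was not called after the correction (adjusted p = 0.0685). Oraov1 stood at 13.06, 9.62 and 13.13 in treated tumours 1, 2 and 3, against 9.38, 9.45, 9.32 and 9.37 in untreated tumours, with 2.55 ± 0.47 (SE), adjusted p = 0.000556. The untreated tumours lay within 0.2 of one another in Oraov1, and treated tumours 1 and 3 over 3 log2 units above them.

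Several genes that fell most were near the untreated level in treated tumour 2 and far below it in treated tumours 1 and 3. Pcdhgc3, a protocadherin, stood at 7.43, 13.06 and 7.45 in treated tumours 1, 2 and 3, against 12.94, 11.84, 13.01 and 12.43 in untreated tumours, with -3.24 ± 0.93 (SE), adjusted p = 0.0134. Wee1, the kinase that holds cells back from mitosis, stood at 3.56, 8.83 and 4.07 in treated tumours 1, 2 and 3, against 8.61, 7.88, 8.71 and 8.46 in untreated tumours, with -2.93 ± 0.76 (SE), adjusted p = 0.00735. Kbtbd4 stood at 4.46, 10.29 and 6.26 in treated tumours 1, 2 and 3, against 10.07, 10.11, 10.20 and 10.37 in untreated tumours, with -3.18 ± 0.77 (SE), adjusted p = 0.00524. Pcdhgc3, Wee1 and Kbtbd4 kept their calls after the GC and length correction (adjusted p = 0.0118, 0.0083 and 0.00537). Pseudogenes made up 362 of the 1551 lower calls (23.3%), 20.9% of the 1734 tested, against 40 (2.31%) called higher. Of 15841 protein-coding genes 1130 were higher and 1091 lower. In treated tumour 2 taken singly, the genes with the smallest unadjusted p included Tet3 and Kmt2d, enzymes that modify DNA and histones, with differences of 0.84 and 0.98, and neither passed (adjusted p = 1).

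The therapy difference of T11-UV at 3 days was set beside those of T11-UV at 7 days and of the other T11 lines. In T11-UV at 7 days (4 treated and 4 untreated tumours), 1555 genes were called (7.46%), 899 higher (4.31%) and 656 lower (3.15%). In T11-Apobec at 3 days (4 and 4) 26 were called (0.125%), 16 higher (0.0767%) and 10 lower (0.048%), and in T11 at 3 days (4 and 4) 0, with 483 at an unadjusted p under 0.05. Median differences over all genes were -0.12, -0.14 and 0.08 in these comparisons. The interferon gamma list had medians of 2.94 in T11-UV at 7 days, 1.56 in T11-UV at 3 days, 1.53 in T11-Apobec and 1.38 in T11. At 7 days 18 of 22 members were called higher, where 4.31% of all genes were, and at 3 days 4. By the test of the difference between the times 0 of the 22 passed, where 4.25% of all genes did. The T cell receptor list had 17 of 20 called at 7 days, a median of 2.93, and 2 at 3 days, a median of 1.30, and again 0 members passed the test of the difference. Comparisons within a line share no tumours, whereas the differences between times or lines share the T11-UV tumours at 3 days.

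**Figure D5:**
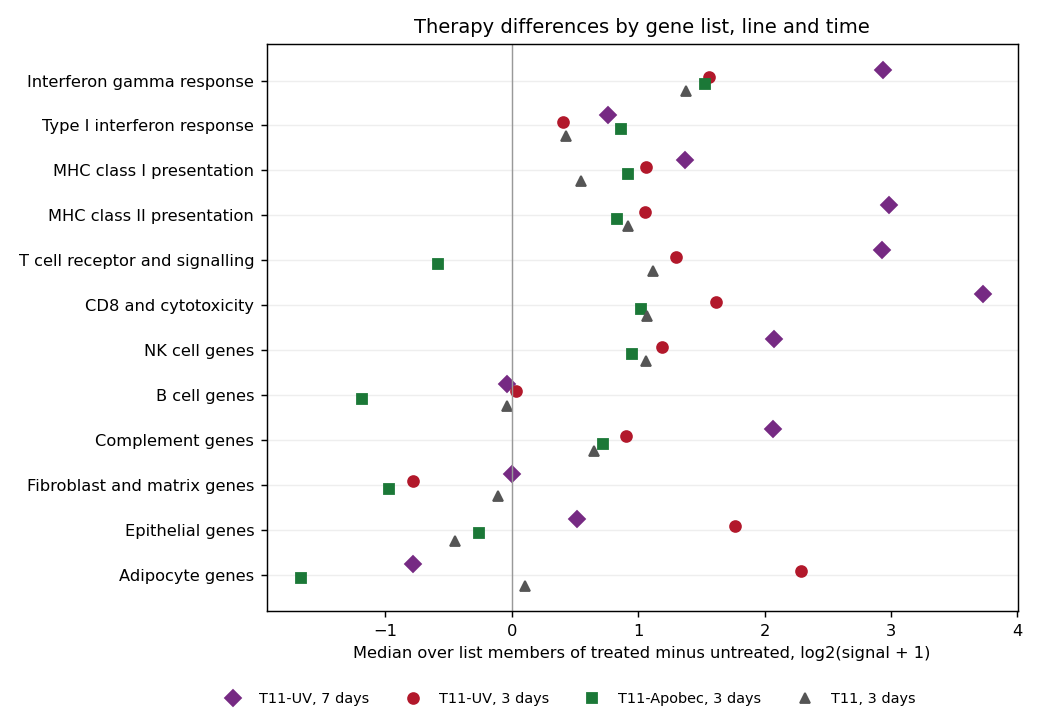
Median over the tested members of 12 gene lists of treated minus untreated tumours, log2(signal + 1), for T11-UV at 7 and at 3 days, T11-Apobec at 3 days and T11 at 3 days. The interferon gamma, MHC and T cell lists are largest at 7 days (interferon gamma 2.94 against 1.56 at 3 days), and the adipocyte list is high in T11-UV at 3 days (2.29) and at -0.78 at 7 days.

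The therapy difference was larger at 7 days than at 3 days in 245 genes (1.18%) and smaller in 642 (3.08%). Among genes with a level above the median and predicted genes passed over, the largest gain was that of C1s1, a complement protease, which differed by 4.18 ± 0.53 (SE) at 7 days and by 1.37 ± 0.57 at 3 days, a gain of 2.81 ± 0.77 (SE), adjusted p = 0.0203. Itgax, the gene of CD11c on dendritic cells and macrophages, gained 2.31 ± 0.70 (SE) (adjusted p = 0.0373). Malat1 had a difference of -1.46 ± 0.55 (SE) at 7 days and 2.35 ± 0.60 at 3 days. That change of -3.81 ± 0.81 (SE) passed (adjusted p = 0.00247). Among the 642 genes, 455 were protein-coding, 8 pseudogenes and 169 of other kinds. T11-UV tumours at 7 days also spread widely in GC slope, from -0.35 to 0.27 in treated and from -0.15 to 0.19 in untreated tumours, and in pseudogenes at 0, from 38 to 394 and from 76 to 379. After the GC and length correction 842 genes differed between times, and the call for Itgax was lost (adjusted p = 0.0537). Without treated tumour 1 the count of 887 became 13, and over all tumours left out in turn it was 13 to 4048.

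Compared with T11, the T11-UV therapy difference at 3 days was larger in 4 genes (0.0192%) and smaller in 31 (0.149%), 35 in all (0.168%), of which 21 were pseudogenes. Klf16, a zinc finger factor, stood at 11.96, 10.72 and 11.42 in treated tumours 1, 2 and 3, against 10.35, 10.70, 10.50 and 10.37 in untreated tumours, and its therapy difference was 0.89 in T11-UV and -0.25 in T11, a gap of 1.14 ± 0.27 (SE), adjusted p = 0.0445. Cops2, a subunit of the COP9 signalosome, had a gap of -1.25 ± 0.31 (SE) (adjusted p = 0.0484). After the GC and length correction 14 genes were called, all smaller in T11-UV, and Klf16 and Cops2 were not among them (adjusted p = 0.234 and 0.238). When protein-coding genes alone were tested the count was 0. Irf1 and Socs1 had therapy differences of 1.96 and 2.76 in T11-UV and 0.64 and 0.46 in T11. Their gaps of 1.32 ± 0.58 (SE) and 2.29 ± 0.84 (SE) did not pass (adjusted p = 0.195 and 0.126). Irf1 and Socs1 were named for the smallest p-values of their list in T11-UV. Over the 22 interferon gamma members the median gap was -0.07, and 0 passed. Against T11-Apobec a single gene differed (0.0048%), the predicted gene Gm26728, named after its values were seen, with 2335 genes at an unadjusted p under 0.05. Gzmk had 3.65 in T11-UV and 1.23 in T11-Apobec, a gap of 2.41 ± 1.11 (SE) that did not pass (adjusted p = 0.399). Over the 16 cytotoxic members the median gap to T11-Apobec was 0.40, and 0 passed.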

How the data were processed

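Total RNA from whole tumours was extracted with Qiagen RNeasy, made into TruSeq mRNA libraries and sequenced as paired reads of 50 bases, per the labels' protocols. The submitters' processing notes name STAR, SAMtools, Picard, Salmon and the build mm10, without versions. The authors deposited signal per gene on a linear scale, scaled to a common upper quartile: that of the values above 0 was 2048.974 in each of the 7 libraries. A further column without a name was not used (1 column). Of 45724 entries 45657 were kept, after 39 date names and 28 entries of 14 repeated symbols were left out.

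Values were transformed as log2(signal + 1), filtered to genes above 0 in at least 4 samples and to the upper 66.7% by mean, and fitted with limma 3.58.1 (trend, R 4.3.3) over 47 groups. A treated tumour taken singly was fitted as its own group. The fit was tested on simulated data with normal noise and the pooled SD of each gene in all groups. That test could not examine the use of a pooled spread. List tables, exact tests and figures used Python 3.11.15, pandas 2.3.3, numpy 2.4.6 and matplotlib 3.10.9. Depth was worked out from the spacing of low values, of which 36.0 to 70.8% came out whole (tolerance 0.01), so no counts were recovered. The GC and length correction and the restriction to protein-coding genes were chosen after seeing the data. Other settings changed the pseudocount, the filter, the scaling, the source of the spread and the libraries included.

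The members and gene lists were chosen with earlier results of these data known. Named genes are up to 12 per direction by size among called genes above the median level, up to 3 called members per list by p, a fixed panel of 26, and up to 5 per direction above the median level for each tumour and each test of a difference; predicted genes, pseudogenes and receptor segments were passed over. Further list members were named for their role, with their values known, and a few genes are not reported here. Of the list of 9 mitochondrially encoded genes 0 were in the table. P-values measure the spread between tumours of separate mice.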

Additional observations from a re-analysis of the deposited data

Results flagged for a closer look

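Of 122 values tested in the 4 untreated tumours, 6 had a tumour far from the others by Dixon's test, and chance picks out about 1 in 20. Il12rb1 was 9.2724 in untreated tumour 3, with the others at 9.0254 to 9.0402. Tnfrsf4 was 6.5834 in untreated tumour 2, with the others at 6.191 to 6.255. Lta was 3.5187 in untreated tumour 4, with the others at 4.0068 to 4.0908. Batf2 was 7.243 in the same tumour, with the others at 7.7704 to 7.8432. Bst2 was 12.8927 in untreated tumour 2, with the others at 12.6671 to 12.6806. The mean of the inhibitory checkpoint receptor list was 7.3576 in untreated tumour 3, with the others at 6.9961 to 7.0556.

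The therapy difference at 3 days was larger in T11-UV than in T11, by limma's test of that difference, for Klf16 (1.1359) and Ppp1r16a (1.0374). It was smaller for Zfp958 (-1.6402), Dr1 (-1.4344), Cops2 (-1.2523), Dram2 (-1.1705) and Yipf5 (-1.1399). Between times in T11-UV, the difference at 7 days was larger than at 3 days for the complement proteases C1s1 (2.8097) and C1ra (2.2978), Tmem140 (2.6671), Itgax (2.3107) and Igsf6 (2.2624). It was smaller for the RNAs Rn7s1 (-5.5759), Rn7sk (-4.7966), Malat1 (-3.8095) and Kcnq1ot1 (-3.6005) and for Fcrls (-3.312). All are gaps on the log2(signal + 1) scale. After the GC and length correction 0 of the 7 genes that differed from T11 were called, and 7 of the 10 that differed between times were, the others being Itgax, Rn7s1 and Rn7sk. The part of depth was not tested.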

How the results depend on the processing

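The count of 2937 genes was 2871 and 2955 with pseudocounts of 0.1 and 10, 2530 without the filter on means, 2466 for the upper 33.3% of genes by mean, 2929 with robust moderation and 3422 with a flow cell term. It was 4593 with the spread from 6 groups at 3 days and 0 with that of the 7 libraries alone (2701 unadjusted). Leaving out tumours in turn gave 1 to 7377. Treated tumour 1 taken singly gave 5607 to 6263, treated tumour 2 0 throughout, and treated tumour 3 1278 to 2955, or 1298 after the GC and length correction. The difference between times ranged over 13 to 4048, that from T11 over 0 to 4617 and that from T11-Apobec over 0 to 1738. Against T11 the count of 35 became 15 with median scaling, 14 after the GC and length correction and 0 among protein-coding genes. Against T11-Apobec the count of 1 became 4 with a pseudocount of 10, 3 with median scaling, 6 after the correction and 0 among protein-coding genes. With a pseudocount of 10 the list medians moved to 0.7667 (mast cell) and 0.9475 (epithelial). For the upper 33.3% they moved to -0.2732 (follicular helper, reversed), 0.3296 (B cell), 0.0507 (alternatively activated macrophage), 0.8231 (inflammatory myeloid), 0.0512 (mast cell), 0.9877 (epithelial), 1.0061 (adipocyte) and 1.4211 (erythroid), with fewer members tested. The skin and hair median of 0 moved to 0.1467 with median scaling and -0.1252 after the correction. The regulatory T cell median ranged over 0.2506 to 1.0789 as tumours were left out. The correction reversed B2m (-0.1476), S100a8 (-0.2882) and Mki67 (0.0468). Leaving out tumours reversed Ctla4 (-0.3284 to 0.6882), Prf1 (-0.2938 to 0.6896), Ms4a1 (-1.1538 to 0.6318), B2m (-0.2687 to 0.29) and S100a8 (-0.1036 to 0.115), and 0 of these were called. The cause was not tested. Of 53 named called genes, 35 were called after the correction, 0, 53 and 5 without treated tumours 1, 2 and 3, and 30, 49, 30 and 33 without untreated tumours 1, 2, 3 and 4. Depth limits genes near 0 most in treated tumour 1. No paired analysis was possible because the labels give a mouse number of its own to each tumour and no pairing between arms.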

Other observations

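Among genes of the immediate early and heat shock response, which mark recent stress or stimulation, 2 of 14 rose and 0 fell, where 6.65% of all genes were called higher, and the median was 0.23 beside -0.09 over all genes. Medians were -0.13, 0.62 and 0.28 in treated tumours 1, 2 and 3, where 7, 14 and 8 members were positive. The list mean was 10.36, 11.36 and 10.69, against 10.625 to 10.862 in the untreated tumours. It lay below that range in treated tumour 1, above it in treated tumour 2 and inside it in treated tumour 3. The 2 called genes did not follow this order. Junb, a subunit of the AP-1 factor, stood at 14.65, 13.27 and 14.43 in treated tumours 1, 2 and 3, against 12.99, 13.17, 13.02 and 12.79 in untreated tumours, with 1.12 ± 0.36 (SE), adjusted p = 0.0244 by limma. Zfp36, which speeds the decay of cytokine messages, stood at 12.09, 11.71 and 12.25 in treated tumours 1, 2 and 3, against 11.16, 11.07, 11.18 and 10.94 in untreated tumours, with 0.93 ± 0.31 (SE), adjusted p = 0.0329. All treated tumours exceeded all untreated ones in both. After the GC and length correction 0 members of the list were called.

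Erythroid genes had 0 calls among 7 and a median of 0.44, and their list mean was 8.32, 7.94 and 8.48 in treated tumours 1, 2 and 3, against 7.23 to 7.83 in the untreated tumours. Genes of migratory and second-type dendritic cells had 0 calls among 11 and a median of 0.13. Mammary luminal and milk genes had 0 among 10 and a median of 0.60, and skin and hair genes 0 among 9 and a median of 0.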
